A study of Mus musculus with 29 samples.

Results

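In adult IRF8 knockout (KO) microglia, 757 PU.1-bound regions had no overlapping PU.1 peak in either wild-type (WT) library. They were selected on the presence and absence of PU.1 peaks. A KO consensus region is a merged stretch of DNA with a peak in both KO libraries, and there were 4585 of these. The 757 KO-only regions made up 16.5% of them, and the other 3828 overlapped a WT peak and are called shared. In the opposite direction, 1347 of 5359 WT consensus regions had no KO peak and are called WT-only. All these sets come from the authors' peak lists, in which a peak is present or absent, so a KO-only region is one without a called peak in WT and not one shown to lack WT signal. The size of the set depends on the WT lists: without WT replicate 1 it was 1422 regions, and without WT replicate 2 it was 1114. A single KO library in place of 2 gave 4818 or 7275.

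The study profiled mouse cells by CUT&RUN, in which a nuclease tethered by an antibody cuts out the DNA around the bound protein for sequencing. PU.1, H3K27ac and H3K4me1 were mapped in sorted microglia of 3-month-old WT and IRF8KO mice, with 2 libraries for each target and genotype. IRF8 was mapped with a GFP antibody in IRF8-EGFP mice, in microglia at 3 ages, which were day 9 after birth (P9, 4 libraries), day 14 (P14, 3) and adult (3), and in peritoneal macrophages (3). All samples were from females, and cells for transcription factors were fixed in paraformaldehyde. The labels do not say how IRF8 was deleted, in which cells, or whether the libraries of a group came from different animals, so a p-value here measures the spread between libraries, which may be technical. The labels count the KO H3K27ac libraries as 2 of 3 and the P9 libraries as 4 of 7. The IRF8 peaks come from IRF8-EGFP mice, so at a KO-only region they show where IRF8 lies when it is present.

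PU.1, encoded by Spi1, is the ETS-family factor that marks and opens enhancers in macrophages and microglia. IRF8 binds DNA poorly alone and joins PU.1 on composite ETS-IRF sites, and microglia need it to mature. H3K4me1 marks enhancers in general and H3K27ac the active ones, and peritoneal macrophages share PU.1 with microglia but use another set of partner factors.

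The sequences below are examples from the middle of KO-only regions. They are 121-base windows of the GRCm38 plus strand around the region centre, written 5′ to 3′, with matches to 6 short motifs on either strand in capitals. The motifs are ETS (AGGAAGT), the ETS-IRF composite (GGAANNGAA), the interferon response site (GAAANNGAA), AP-1 (TGANTCA), C/EBP (TTGCNNAA) and RUNX (TGTGGTT), where N is any base and overlapping matches share capitals. Each holds a match and was chosen for a result given further on, and none overlaps an exon. Many windows of named regions held no match, among them those of the strongest regions, near Lyn, Dpysl2 and Cpeb2. The first, near the monocyte chemokine receptor gene Ccr2, holds an ETS and an AP-1 match that overlap. The regions at Lrrfip1, Scgb2b26 and Trps1 hold a composite match, the last beside AP-1, and all 3 had IRF8 peaks in macrophages and in no adult microglia library. Other named regions with a composite match varied. The one near Gm28710 had IRF8 in 3 macrophage and 0 adult libraries, and the one near Tmem17 had no IRF8 peak. The one in Rreb1 had IRF8 in 2 adult and 0 macrophage libraries. The last 4 lay in introns of Cd36 (lipid uptake) and Mertk (phagocytosis) or between genes, 40153 bp from the start of Itga4 (adhesion) and 230827 bp from that of Klf4 (myeloid transcription), which were the nearest.
Ccr2, chr9:124068554-124068674: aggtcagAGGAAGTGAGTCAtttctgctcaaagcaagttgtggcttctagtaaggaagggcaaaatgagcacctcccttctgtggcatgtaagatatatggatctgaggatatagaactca
Lrrfip1, chr1:91034552-91034672: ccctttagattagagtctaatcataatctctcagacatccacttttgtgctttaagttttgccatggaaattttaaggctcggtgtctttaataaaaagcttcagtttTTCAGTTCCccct
Scgb2b26, chr7:33900185-33900305: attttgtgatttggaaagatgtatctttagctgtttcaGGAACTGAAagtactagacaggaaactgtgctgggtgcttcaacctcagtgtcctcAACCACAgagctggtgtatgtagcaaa
Trps1, chr15:50649989-50650109: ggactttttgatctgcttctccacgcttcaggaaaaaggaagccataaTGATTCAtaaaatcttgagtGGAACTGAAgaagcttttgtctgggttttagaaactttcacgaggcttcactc
Itga4, chr2:79215287-79215407: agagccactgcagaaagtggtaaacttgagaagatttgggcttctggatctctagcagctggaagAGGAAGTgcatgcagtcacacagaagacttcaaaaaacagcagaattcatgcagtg
Cd36, chr5:17879991-17880111: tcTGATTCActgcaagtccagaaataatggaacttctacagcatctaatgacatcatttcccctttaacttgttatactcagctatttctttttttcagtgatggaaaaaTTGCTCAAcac
Klf4, chr4:55763233-55763353: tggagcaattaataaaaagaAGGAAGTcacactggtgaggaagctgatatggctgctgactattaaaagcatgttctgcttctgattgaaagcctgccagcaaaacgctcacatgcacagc
Mertk, chr2:128719483-128719603: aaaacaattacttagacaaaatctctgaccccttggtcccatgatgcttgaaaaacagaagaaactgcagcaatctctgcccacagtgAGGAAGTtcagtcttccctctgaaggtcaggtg

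ETS matches stood at the centre of KO-only regions about as often as at shared ones. Within 100 bp of the centre (201 bases), 192 of 757 KO-only regions (25.4%) had the ETS motif, against 25.6% of shared and 22.5% of WT-only regions. In windows of the same length 1 kb away from the KO-only regions the share was 4.76%, and in windows of that length at the starts of 32851 RefSeq genes it was 6.82%. At the strongest summit it was 14.3% of KO-only and 14.7% of shared regions, and over whole regions 48.6% and 58.8%. Within 1 kb of a start, ETS matches were in 11.6% of KO-only and 17.6% of shared centres, and farther away in 28.2% of each. The longer form GAGGAAGT, preferred by PU.1, was in 13.2% of KO-only and 14.2% of shared centres. Near starts this form was in 2.33% and 10.0%, against 2.41% of gene starts. The composite motif was in 8.72% of KO-only centres, 10.5% of shared and 17.0% of WT-only centres, against 8.06% of the KO-only flanks and 5.51% of gene starts. At KO-only regions it was thus about as frequent as in their own flanks, while at WT-only regions, where the flanks had 5.42%, it was more frequent at the centre. RUNX matches were in 8.06% of KO-only, 4.94% of shared and 4.68% of WT-only centres, with 5.42% in the KO-only flanks and 3.53% at gene starts. AP-1 matches were in 7.66% of KO-only centres and 8.19% of flanks (5.39% of gene starts), C/EBP matches in 11.5% and 9.25% (6.82% of gene starts), and interferon response matches in 9.25% and 8.59% (5.44% of gene starts). These are descriptions of letters in a window and were not tested.

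KO-only regions were weaker and narrower than shared ones, as far as the selected values go. Their median width was 616 bp, against 736 bp for shared and 595 bp for WT-only regions. The authors' fold enrichment over IgG had a median of 5.49 in KO replicate 1 (2.88 to 44.3) and 4.97 in replicate 2 (2.67 to 23.7), against 6.80 and 6.12 at shared regions. Replicates 1 and 2 of each genotype were called against different IgG controls, so their folds are not on one scale. When all 4585 KO regions were ranked by the mean within-list percentile of −log10 p and divided into 4 bins of equal size, KO-only regions made up 29.9% of the weakest bin, 17.8% and 12.9% of the next, and 5.41% of the strongest. These values come from the lists that chose the members and carry no test.

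The closest WT peak was usually far away. Its median distance was 19034 bp (32 to 661339 bp), with 2 regions within 100 bp and 11 within 500 bp. At the edge of the rule, the closest on the KO-only side were regions at Bak1 and Ccdc28b, which lay 32 and 33 bp from a WT peak, with fold enrichments of 6.53 and 5.36 and of 6.22 and 4.59 in the KO libraries. Just on the other side, shared regions at St5 and Tsnaxip1 overlapped a WT peak by 8 and 9 bp, with 3.48 and 3.40 and with 4.03 and 5.36.

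KO-only regions lay mostly away from promoters, as did the other sets. Within 1 kb of the start of a protein-coding gene were 129 regions (17.0%), against 23.0% of all KO regions, 24.2% of shared and 11.4% of WT-only regions. More than 10 kb away were 455 (60.1%), against 51.6% of all KO regions, 49.9% of shared and 63.2% of WT-only regions. By gene structure, 326 lay in introns (43.1%, against 44.4% of all KO regions) and 357 between genes (47.2%, against 42.7%). Exons of coding genes held 63 (8.32%, against 11.0%) and exons of non-coding genes 11 (1.45%, against 1.88%). They were spread over all autosomes, with 12.96% (chromosome 11) to 20.3% (chromosome 18) of the KO regions of each. GC content had a median of 46.6%, against 47.98% at shared regions, and annotated repeats covered a median of 12.03%, against 10.9%.

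The strongest KO-only region, at chr4:3626789-3627381, lay 51030 bp upstream of Lyn, which encodes a Src-family kinase of myeloid receptor signalling. Its fold enrichment was 44.3 in KO replicate 1 and 23.7 in replicate 2, above every other KO-only region in both libraries. It had IRF8 peaks in all 3 adult microglia libraries (fold 14.5, 7.58 and 4.10) and in 2 of 3 macrophage libraries, and H3K27ac peaks in both KO libraries and 1 WT library. A WT PU.1 peak lay 1722 bp away. The second, in an intron of the cytoskeletal gene Dpysl2 (chr14:66844710-66846675), reached 17.9 and 14.9, had a WT peak 642 bp away and carried H3K27ac in all 4 libraries.

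**Figure D1:**
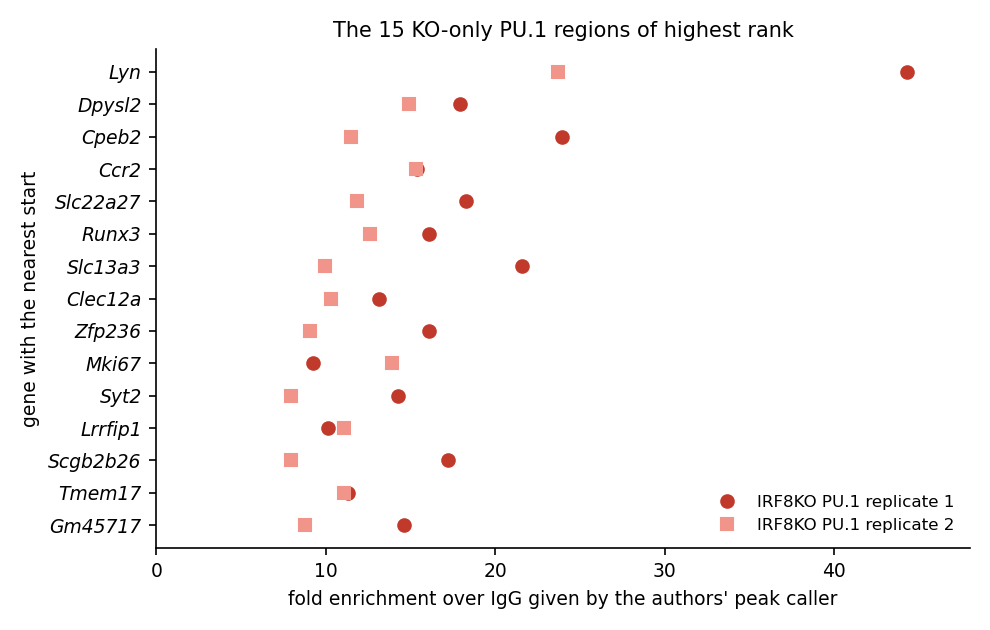
Fold enrichment of PU.1 over IgG in each of the 2 IRF8KO libraries at the 15 KO-only regions of highest mean within-list percentile, named by the gene with the nearest start. The region near Lyn stands at 44.3 and 23.7, and the other 14 lie between 7.94 and 23.9.

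The region at chr5:43048194-43049353, 184397 bp from the RNA-binding protein gene Cpeb2, had PU.1 folds of 23.9 and 11.5 in KO. It had no adult IRF8 peak, IRF8 peaks in 2 macrophage libraries (4.77 and 4.82) and H3K27ac in all 4 libraries. The region 33336 bp upstream of Ccr2 (chr9:124067931-124069297) had folds of 15.4 and 15.3 in KO, and IRF8 peaks in 2 adult (5.71 and 9.53) and 3 macrophage libraries (12.1, 7.09 and 5.62). The region 29472 bp downstream of the start of Runx3 (chr4:135181797-135182139), which encodes a RUNX-family factor, had folds of 16.1 and 12.6. It was bound by IRF8 in all 3 adult libraries (14.5, 10.5 and 8.79) and had no H3K27ac peak in any library. No IRF8 peak was found in any adult library at 7 of the 15, against 292 of all 757 KO-only regions (38.6%) and 5.62% of shared regions. These 7 were nearest to Cpeb2, Slc13a3, Clec12a, Zfp236, Lrrfip1, Scgb2b26 and Tmem17. Of these 7, all but the Slc13a3 and Tmem17 regions had an IRF8 peak in at least 1 macrophage library.

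IRF8 peaks covered KO-only regions less often than shared regions in every one of the 13 IRF8 libraries. In adult microglia, 36.6%, 57.5% and 23.5% of KO-only regions had an IRF8 peak in replicates 1 to 3, against 83.3%, 92.3% and 66.1% of shared regions. The difference was −41.4 ± 5.99 percentage points (SD, n = 3). In P14 microglia, the shares were 11.6%, 35.8% and 10.2% at KO-only and 56.5%, 81.4% and 51.6% at shared regions, a difference of −44.0 ± 2.23 points (n = 3). In P9 microglia, where lists were short, 0.793%, 0.925%, 2.51% and 0.661% of KO-only regions had a peak, against 15.2%, 13.7%, 22.8% and 13.2% (−15.0 ± 3.62 points, n = 4). In peritoneal macrophages the shares were 53.8%, 45.7% and 11.5%, against 69.8%, 62.0% and 23.4% (−14.8 ± 2.45 points, n = 3). The libraries that stood highest at KO-only regions were those with the longest lists of their group, and adult replicate 2, P14 replicate 2 and macrophage replicate 1 led in each case.

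Over the 13 libraries the mean difference was −27.7 ± 14.8 points, negative in 13 of 13, with an exact two-sided sign-flip permutation p of 0.000244, the smallest that 13 libraries can give. These libraries pool 4 groups and all score the same sets of regions, so the p-value covers the spread between libraries and not between regions. How far the choice of regions without a WT PU.1 peak sets this difference was not tested. Within each group every library was also lower, but the exact p could not reach 0.05 with 3 or 4 libraries (Benjamini-Hochberg adjusted p = 0.25 in all 4 groups). Averaged over the 4 bins of KO PU.1 strength, which come from the lists that chose the members, the difference was −26.5 points.

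**Figure D2:**
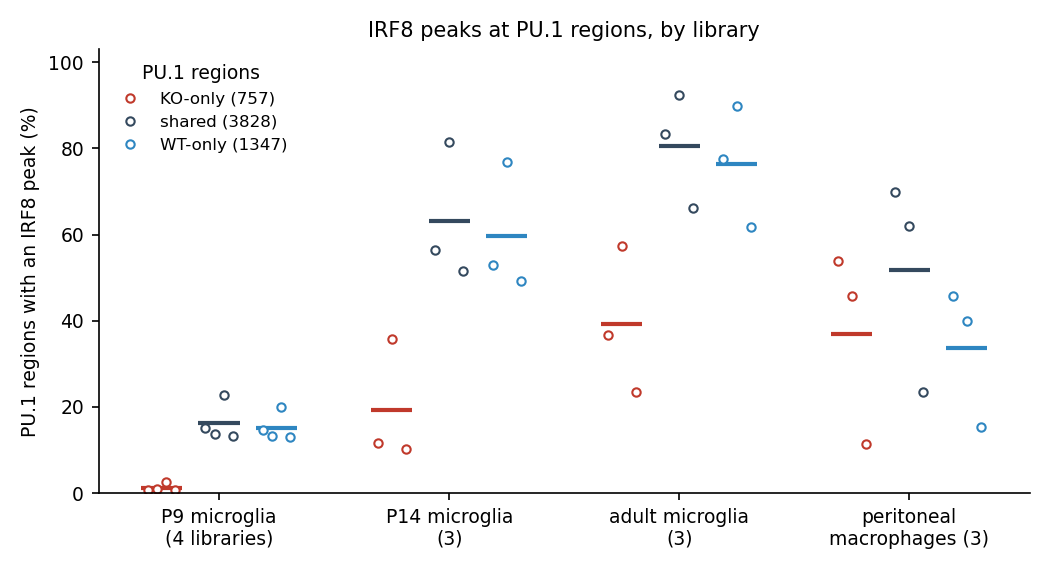
Percent of PU.1 regions with an IRF8 peak in each IRF8 library (circles) and group mean (lines), for KO-only, shared and WT-only regions. In adult microglia the KO-only regions sit at 23.5% to 57.5% and the shared ones at 66.1% to 92.3%, and in macrophages at 11.5% to 53.8% and 23.4% to 69.8%.

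In percentage points, the gap between KO-only and shared regions was wider for IRF8 of adult microglia than for IRF8 of peritoneal macrophages. It was −41.4 points in microglia and −14.8 points in macrophages, a difference of −26.6 points, and in points the 3 microglia libraries did not overlap the 3 macrophage libraries. The exact two-sided permutation p was 0.1, the smallest that 3 against 3 libraries allow. This contrast was chosen after the values had been seen. As a ratio of the KO-only to the shared share the groups did overlap, with 0.440, 0.622 and 0.355 in microglia and 0.770, 0.737 and 0.490 in macrophages (means 0.472 and 0.666, exact permutation p = 0.2). Macrophage IRF8 also covered fewer shared regions, 51.8% against 80.6% on average. The gap in points differed by −24.6 among the 4 libraries that the labels place in batch 1, −30.7 points between the 2 of batch 2, and −30.0 points with all 6 lists shortened to their strongest 9788 regions. The macrophage peaks were called against an IgG control of their own, so cell type and control cannot be told apart.

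At the KO-only regions alone, the 2 cell types were not separated by their shares of IRF8 peaks, 39.2 ± 17.1% in adult microglia and 37.0 ± 22.4% in macrophages (SD, n = 3 each). The difference of 2.202 points had an exact permutation p of 0.9, was −2.71 points in batch 1 and 12.02 in batch 2, and turned to −7.88 points with lists of equal length. At shared regions microglia stood 28.8 points above macrophages, and at WT-only regions 42.6 points.

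In consensus lists, which need a peak in at least 2 libraries of a group, 39.4% of KO-only regions overlapped adult IRF8, against 78.3% of all KO regions, 86.0% of shared and 80.8% of WT-only regions. Macrophage IRF8 covered 40.7% of KO-only regions, against 55.9% of all KO regions, 58.9% of shared and 37.2% of WT-only regions. For P14 the shares were 13.9% of KO-only and 55.7% of all KO regions, and for P9 0.925% and 14.7%. These shares depend on the libraries included. With 1 library left out, the consensus needs a peak in both remaining ones, which is a stricter rule. The adult share at KO-only regions was then 22.9% without adult replicate 1 and 18.5% without replicate 2. The macrophage share was 10.04% without macrophage replicate 1 and 10.6% without replicate 2. Macrophage replicate 3, which remained in both cases, had a peak at 11.5% of KO-only regions.

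Macrophage IRF8 without adult microglial IRF8 was more frequent at KO-only regions than in either other set. A macrophage but no adult consensus overlapped 156 KO-only regions (20.6%), against 3.40% of shared and 2.15% of WT-only regions. Counted by libraries (2 macrophage and under 2 adult), this class was 20.3% of KO-only and 3.29% of shared regions. Leaving out a library asks the same counts of fewer libraries. Without adult replicate 1 or 2 this class was 28.7% or 30.3% of KO-only and 13.4% or 14.7% of shared regions, and without macrophage replicate 1 or 2 it was 4.36% or 4.76% and 0.601% or 0.731%. Both overlapped 152 (20.1%, against 55.5% of shared), adult alone 146 (19.3%, against 30.5%) and neither 303 (40.0%, against 10.6%). Where the adult consensus was missing, 156 KO-only regions had the macrophage consensus and 303 did not. For shared regions these numbers were 130 and 407, and for WT-only regions 29 and 230. The share of the macrophage-alone class thus also depends on how often the adult consensus was missing. Counting only regions with no IRF8 peak in any adult library, 95 KO-only regions (12.5%) had the macrophage consensus, against 0.810% of shared and 0.742% of WT-only regions. With peaks counted in 2 macrophage libraries and no adult one, again over fewer libraries, leaving out macrophage replicate 1 or 2 reduced this to 2.64% or 2.91% (0.104% or 0.131% of shared regions), and leaving out adult replicate 2 raised it to 19.2% (2.85% of shared regions). In the middle of these 95, ETS matches were in 27.4%, C/EBP matches in 18.9% and AP-1 matches in 12.6%, against 7.37%, 7.37% and 5.26% in their flanks. Interferon response matches were in 12.6% (8.42% of flanks), composite matches in 9.47% (6.32%) and RUNX matches in 8.42% (4.21%). No IRF8 peak in any of the 13 libraries was found at 131 KO-only regions (17.3%, against 3.58% of shared regions), and 26.7% of these held an ETS match.

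**Figure D3:**
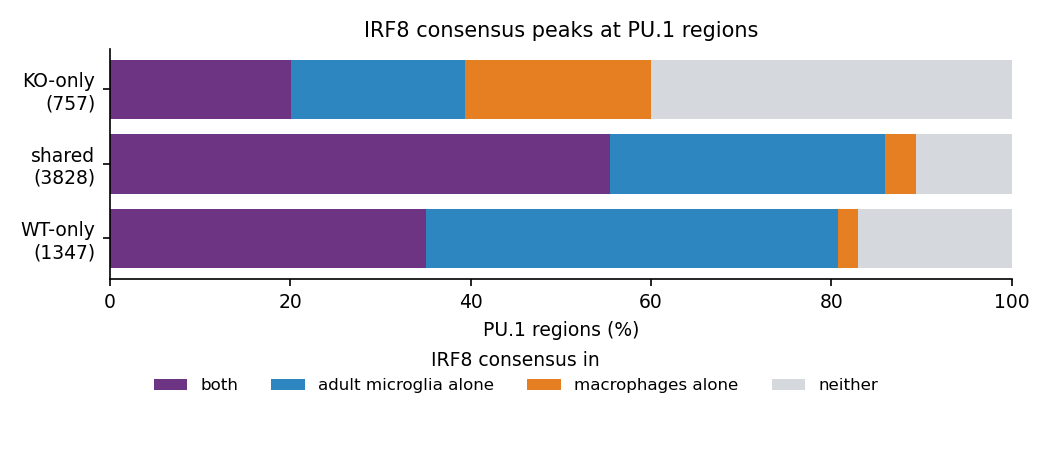
Percent of KO-only, shared and WT-only PU.1 regions that overlap IRF8 consensus regions of both cell types, of adult microglia alone, of peritoneal macrophages alone or of neither. The macrophage-alone class holds 20.6% of KO-only regions, 3.40% of shared and 2.15% of WT-only regions.

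From the weakest to the strongest bin, the adult IRF8 consensus covered 41.4%, 40.7%, 37.2% and 29.0% of KO-only regions, while it covered 79.9%, 81.7%, 88.2% and 92.2% of shared regions. Macrophage IRF8 covered more of the stronger regions in both sets, with 36.2%, 34.8%, 50% and 62.9% of KO-only regions against 47.4%, 53.1%, 58.9% and 72.4% of shared regions. The strongest bin held 62 KO-only regions. The share of KO-only regions within 1 kb of a start also fell over the bins, from 23.3% through 13.7% and 12.2% to 4.84%, while 24.3% of shared regions of the strongest bin lay there. Over 1 kb from a start, the adult shares of KO-only regions were 33.1%, 35.8%, 33.1% and 27.1%, with no steady fall, and the macrophage shares 34.98%, 34.1%, 49.2% and 64.4%. WT H3K27ac covered 75.2%, 71.1%, 68.9% and 61.3% of KO-only regions over the bins, and KO H3K27ac 39.1%, 41.7%, 44.6% and 54.8%. In the strongest bin 92.3% of shared regions had WT and 55.4% had KO H3K27ac.

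**Figure D4:**
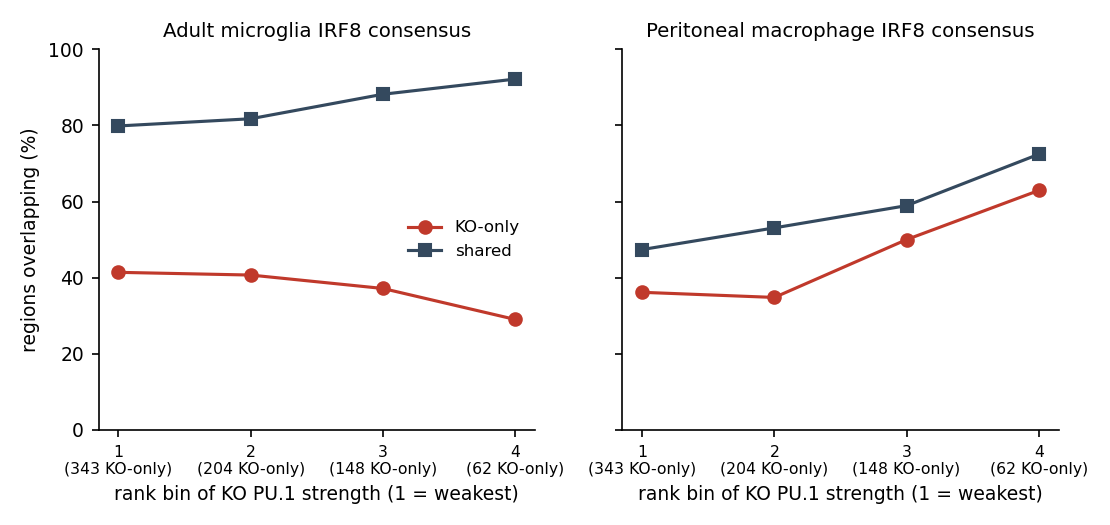
Percent of KO-only and shared PU.1 regions overlapping the IRF8 consensus of adult microglia (left) or peritoneal macrophages (right) in each rank bin of KO PU.1 strength. In the strongest bin the adult shares are 29.0% and 92.2% and the macrophage shares 62.9% and 72.4%.

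Promoter-near members differed from the rest in microglial IRF8. Of the 129 KO-only regions within 1 kb of a start, 69.0% had the adult IRF8 consensus, against 31.0% of the 455 regions more than 10 kb away. For macrophage IRF8 the shares were 41.9% and 41.1%. Among shared regions, adult IRF8 covered 91.8% near starts and 83.3% far from them. The promoter-near members included the region over the start of Nrd1 (chr4:109000500-109000934), which encodes the protease nardilysin, with PU.1 folds of 8.11 and 8.03 and IRF8 peaks in 3 of 3 adult and 0 of 3 macrophage libraries. A region at the start of Ubfd1, over an exon of Ears2 (chr7:122066894-122067376), had the same IRF8 pattern, with PU.1 folds of 8.78 and 8.03.

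The WT H3K27ac consensus covered 71.7% of KO-only regions (49.5% with H3K27ac lists of equal length), against 87.6% of all KO regions, 90.7% of shared and 88.1% of WT-only regions. The KO consensus covered 42.1%, against 47.8% of all KO regions, 49.0% of shared and 19.9% of WT-only regions. By library, 80.2% and 74.8% of KO-only regions had an H3K27ac peak in WT and 78.6% and 40.7% in KO. KO replicate 2 stood apart, with 8.57 M (mega) fragments and 31524 regions against 72354 to 88400 regions in the other 3 libraries.

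The KO-minus-WT difference in H3K27ac at KO-only regions was −17.8 points (exact permutation p = 0.667, smallest possible 0.3333), and without KO replicate 2 it was 1.12 points. With all lists cut to 31524 regions it was −9.05 points. The same difference was −28.0 points at shared and −54.1 points at WT-only regions, and −27.7 and −53.3 points with equal lists. The gap between KO-only and shared regions was −14.1 and −17.5 points in the WT libraries and −0.946 and −10.3 points in the KO libraries, so the genotypes did not overlap, with 2 libraries each and no test able to go below 0.3333. Where H3K27ac was present, the median within-list percentile at KO-only and shared regions was 77.0 and 89.1 in WT replicate 1, 76.5 and 90.4 in WT replicate 2, 86.7 and 86.7 in KO replicate 1, and 69.7 and 73.3 in KO replicate 2. The lists differ in length, so these percentiles compare regions within a library and not libraries with each other.

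**Figure D5:**
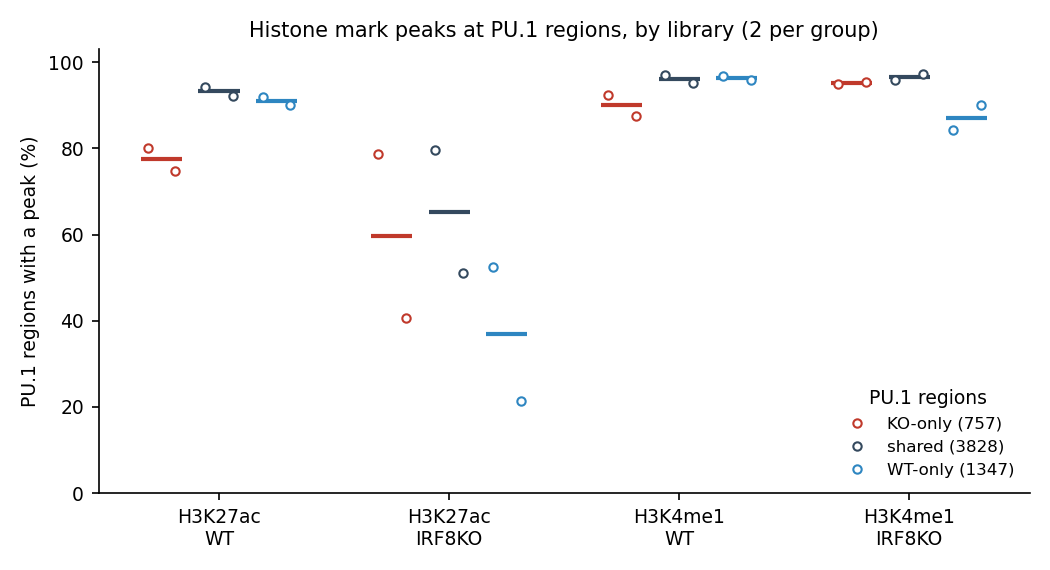
Percent of KO-only, shared and WT-only PU.1 regions with an H3K27ac or H3K4me1 peak in each WT and IRF8KO library (circles) and the mean of 2 libraries (lines). KO-only regions reach 80.2% and 74.8% for WT H3K27ac and 78.6% and 40.7% for KO H3K27ac.

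At 230 KO-only regions (30.4%) all 4 H3K27ac libraries had a peak, against 44.8% of shared and 16.6% of WT-only regions. At 38 (5.02%) none had, against 1.88% and 3.86%. A peak in both KO and in neither WT library was found at 26 (3.43%), against 0.157% of shared and 0.148% of WT-only regions. Asking for KO replicate 1 and neither WT library, whatever KO replicate 2 showed, it was 63 (8.32%, against 0.705% of shared regions). Of the 26, 11 overlapped the macrophage IRF8 consensus and 1 the adult one, set beside 40.7% and 39.4% of all KO-only regions. A peak in both WT and in neither KO library was found at 55 (7.27%, against 10.2% of shared and 33.6% of WT-only regions).

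The strongest of the 26 lay over the start of Clec12a (chr6:129349484-129350504), which encodes an inhibitory C-type lectin of myeloid cells. PU.1 reached folds of 13.2 and 10.3 in KO, with the closest WT peak 83617 bp away. H3K27ac was called in KO at 5.37 and 3.83 and in neither WT library, H3K4me1 in all 4, and IRF8 in 2 macrophage libraries (15.1 and 11.0) and in no microglia library of any age. The region at Lrrfip1 (chr1:91034323-91034901), whose product binds nucleic acids, had the same IRF8 and H3K27ac pattern. So did one 361637 bp from the start of Edil3 (chr13:88459678-88459992), which encodes an integrin ligand. PU.1 folds were 10.2 and 11.1 at the first and 11.3 and 9.95 at the second. At Lrrfip1 H3K4me1 was also called in both KO and neither WT library. The region 1014 bp upstream of Sorbs3, an adaptor protein gene of cell adhesion, had H3K27ac folds of 11.4 and 12.9 in KO, no H3K27ac peak in WT, and IRF8 in 3 of 3 macrophage and 0 of 3 adult libraries. Regions near Gm28710 and Gm9268 repeated this with 3 macrophage libraries each. The one in Arpc2, an actin-nucleation subunit gene, had IRF8 in all 3 adult and in 2 macrophage libraries, and the one in Dscam had no IRF8 peak.

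H3K4me1 covered most KO-only regions in both genotypes. The KO consensus covered 95.5%, against 96.6% of all KO regions, and the WT consensus 87.8%, against 94.4%. By library the shares were 94.8% and 95.5% in KO and 92.5% and 87.5% in WT, and the KO libraries were both higher. The difference was 5.22 points (exact permutation p = 0.3333, the smallest possible), 4.36 points with lists of equal length. It was 0.470 points at shared and −9.13 points at WT-only regions. All 4 libraries had H3K4me1 at 609 KO-only regions (80.4%, against 90.3% of shared and 78.2% of WT-only regions), and 26 had it in both KO and neither WT library (3.43%, against 0.470% of shared regions). Neither mark was called in any library at 4 regions (0.528%, against 0.131% of shared and 0.371% of WT-only regions), nearest to Gja1, Fgf16, Bsg and St18, with PU.1 folds from 3.44 to 6.95.

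Genes of microglial identity held few KO-only regions. Genes were linked to regions by gene body or nearest start, and the share of KO-only among all KO regions, 16.5% for the whole set, is the measure for each list. Of 38 KO regions at 24 homeostatic microglia genes, 2 were KO-only (5.26%). One lay in an intron of Mertk (chr2:128719210-128719876), the receptor for apoptotic cells, with folds of 10.2 and 4.97, and the other 69750 bp upstream of the transcription factor gene Mef2a, with folds of 6.22 and 4.37. None of the 20 regions at lysosome genes was KO-only, and neither was the only region at interferon response genes. At disease-associated microglia genes 2 of 11 were, the one 184 bp upstream of Apoe (folds 5.85 and 5.74), which encodes the main lipoprotein of the brain, and the one in Ank (5.12 and 3.83), a gene of pyrophosphate export.

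At lipid handling genes 5 of 14 KO regions were KO-only (35.7%). They lay at Acsl1 (2 regions), which activates long-chain fatty acids, at Pltp, which transfers phospholipids, at the fatty acid receptor gene Ppard and at the scavenger receptor gene Cd36. Their folds were 3.55 to 8.78. At genes of border macrophages, the macrophages of the meninges and vessels, 4 of 12 were KO-only (33.3%): Clec12a, the chemokine gene Pf4 (9.15 and 7.18), F13a1, a clotting factor subunit (5.85 and 3.36), and the chemokine receptor gene Ccr1 (5.12 and 3.44). The Pf4 region, 433 bp upstream of its start, had IRF8 in 2 adult and 2 macrophage libraries and H3K27ac in all 4. F13a1 had H3K27ac in 1 KO and no WT library. The Ccr1 region, 32754 bp from its start, had IRF8 in all 3 adult, 2 macrophage and 5 of 7 P9 and P14 libraries, and H3K27ac folds of 6.44 and 5.09 in KO and 7.09 and 19.3 in WT. Among marker lists of other cell types, KO-only regions were 2 of 2 KO regions for astrocytes (Aldh1l1 and Gja1), 1 of 2 for monocytes (Ccr2), 1 of 3 for endothelium (Flt1) and 0 of 15 for microglia. For lymphocytes and neutrophils it was 0 of 1 each, and neuron and oligodendrocyte markers had no KO region. With so few regions per list, these shares are descriptions.

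Of 59 KO regions at myeloid transcription factor genes, 11 were KO-only (18.6%), nearest to the starts of Runx3, Runx2 and Bhlhe40 (2 each for the latter pair), Atf3 (2), Klf4, Cebpb, Cebpd and Zeb2. Several of these lay far from the gene they were nearest to, with 1248742 bp to the start of Zeb2, 230827 bp to that of Klf4 and 88615 bp to that of Cebpb. Folds were 3.03 to 16.1. At the interferon regulatory factor genes 2 of 12 were, near Irf1 and Irf2. The Irf1 region had no IRF8 peak in adult or macrophage libraries, and the Irf2 region had one in 1 adult and 3 macrophage libraries. In the TGF-beta pathway, which maintains microglia, 3 of 12 were KO-only: introns of the ligand gene Tgfb2 (folds 6.95 and 9.18) and the receptor gene Tgfbr2 (5.49 and 4.84), both with IRF8 in all 3 adult libraries, and a region 10896 bp upstream of Skil, a repressor of the pathway (5.12 and 3.33), with none. In macrophages IRF8 was called in 3 libraries at Tgfb2 (13.8, 14.1 and 7.09), in 0 at Tgfbr2 and in 2 at Skil. At inflammatory genes 2 of 15 were KO-only, near the neutrophil chemokine gene Cxcl2 (8.05 and 9.18) and near Il1a (5.49 and 3.83). Both had IRF8 in 2 macrophage libraries and in no adult library. At antigen presentation genes it was 1 of 3, near H2-K1.

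Few genes held several KO-only regions, and 692 genes were nearest to the 757. Counted by gene body or nearest start, Trps1, a GATA-type repressor gene, had 4, and Atp8b4, Cxcr4, Gm4791, Itga4, Rbpj, Rreb1 and Tnfaip8 had 3 each. Of those at Tnfaip8, 1 was nearest to the start of Hsd17b4. The long gene model Gm20388 also held 3, but these lay far apart and were nearest to 6430548M08Rik, Banp and Ankrd11. All 3 at Itga4, which encodes an integrin chain of leukocyte adhesion, had IRF8 in macrophages (2, 1 and 3 libraries) and in no adult library, with PU.1 folds of 3.83 to 6.22. At Trps1 the strongest (chr15:50649721-50650378) had folds of 13.2 and 8.03, with IRF8 in 2 macrophage and no adult libraries. All 3 at Cxcr4, a chemokine receptor gene, also lacked adult IRF8, with folds of 3.28 to 11.7. At Rbpj, the effector of Notch signalling, each of the 3 had IRF8 in 1 or 2 adult libraries, and at Rreb1, a zinc finger factor gene, all 3 had it in 2.

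The sorted cells were checked by H3K27ac at marker genes. Consensus peaks stood at 9 of 10 microglia markers in WT and 6 of 10 in KO, and at 0 of 8 neuron markers in both. For border macrophage markers it was 5 of 9 in WT and 6 of 9 in KO, where Cd163, F13a1 and Ms4a7 had a peak in KO alone and Cbr2 and Folr2 in WT alone, although the KO consensus was shorter (10555 against 36697 regions). Markers of other types had WT and KO peaks at 3 and 2 of 7 for astrocytes, 3 and 1 of 8 for oligodendrocytes, 4 and 1 of 6 for endothelium, 1 and 0 of 8 for lymphocytes, 3 and 1 of 12 for neutrophils and 2 and 1 of 6 for monocytes. In sorted cells measured together, more cells of another type and more signal in each cell cannot be told apart, and the part of border macrophages or monocytes in the KO-only set was not tested. The PU.1 lists held 10182 and 12509 regions in KO and 14057 and 9490 in WT, from 13.6, 13.3, 8.95 and 17.3 M fragments, and replicate 2 of each genotype was called at a q-value of 0.05 in place of 0.01 and against another IgG control.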

How the data were processed

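Groups were taken from sample titles. Per the labels, the build was mm10 and the tools included Bowtie2 and MACS2. The authors called peaks for each library against IgG, per the file headers with MACS 2.2.7.1 (IRF8, PU.1) or 2.2.6 (histone marks), from paired fragments with duplicates kept and gaps of up to 640 bp joined; H3K4me1 was called broad at a p-value of 0.01. Deposited values per peak were the pileup signal, −log10 p-value, −log10 q-value and fold enrichment (a ratio), which are the authors' own and serve here only to describe or rank peaks within a list.

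All peaks lay within the GRCm38.p6 chromosomes. Entries repeating a region for several summits were merged. Overlap meant at least 1 bp, and a consensus region at least 2 libraries. Genes came from GENCODE vM21, motifs and sequences from the GRCm38.p6 genome and RefSeq promoters. Differences between library shares were tested by exact permutation in Python 3 scripts, and the overlap code was tested on simulated regions. Marker peaks were counted over each gene body and the 2 kb before its start.

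Named regions were the 15 strongest, the 8 strongest with H3K27ac in KO alone, the 8 strongest with IRF8 in all 3 adult libraries, those without marks, those at listed genes, and genes with 3 or more. The members and lists were chosen with earlier results of these data known. Alternatives covered q-value thresholds, distance, overlap, list length and each library left out (P9 and P14 added after the data were seen). Fragment numbers were 7.25 M to 24.7 M (mega) per library, and a missing peak can reflect depth. No interval was computed for shares of regions, since regions are not replicates.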

Additional observations from a re-analysis of the deposited data

Results flagged for a closer look

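In the P9 group of 4 IRF8 libraries, replicate 3 lay far from the others in its share of KO-only regions with an IRF8 peak, at 2.51% against 0.661%, 0.793% and 0.925%. It was also the longest P9 list, with 2068 regions against 1168 to 1366. The group was examined in 3 measures (its share of KO-only regions, of shared regions and their difference), and chance picks out about 1 in 20 groups for each measure.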

How the results depend on the processing

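The set itself moved most. With a −log10 q of at least 4 in the KO lists only, 330 regions were KO-only; in them macrophage IRF8 covered 46.97%, KO H3K4me1 98.5% and starts within 1 kb 13.03%, and adult minus macrophage IRF8 turned to −4.14 points. With that threshold in all 4 PU.1 lists, the adult IRF8 share was 47.3%, macrophage IRF8 45.2%, KO H3K27ac 46.01% and KO H3K4me1 97.7%. With PU.1 lists of equal length, adult IRF8 covered 42.9%. Leaving out a library also changes the rule: an IRF8 consensus then needs both remaining lists, and a KO PU.1 set rests on 1 list. Leaving out 1 PU.1, adult or macrophage IRF8 library at a time, the number of KO-only regions ranged from 1114 to 7275, the highest with only KO replicate 2, and the share with adult IRF8 from 14.1% to 56.5%, macrophage IRF8 from 10.04% to 43.7%, WT H3K27ac from 27.5% to 80.03%, KO H3K27ac from 12.2% to 43.8%, WT H3K4me1 from 39.8% to 90.9%, KO H3K4me1 from 45.1% to 96.2%, and starts within 1 kb from 11.2% to 20.96%.

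Merged IRF8 regions called in all 3 libraries of a group overlapped 19.8% (adult) and 9.91% (macrophage) of KO-only regions. With adult and macrophage lists of equal length the consensus shares were 16.9% and 24.97% and the difference of library means turned to −7.88 points. That difference ranged from −10.5 to 13.3 points without 1 library, negative without adult replicate 2 or macrophage replicate 3. With H3K27ac lists of equal length, the WT share was 49.5% and the KO share 36.5%. The KO-minus-WT difference in H3K27ac ranged from −36.8 to 1.12 points without 1 library, and that in H3K4me1 stayed positive in all 17 alternatives (2.71 to 9.09 points). A limit of 2 kb in place of 1 kb put 22.5% near a start. ETS matches were in 14.3% of windows at the strongest summit and 48.6% of whole regions.

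IRF8 peaks were fewer at KO-only than at shared regions in all 29 alternatives, 7 of them (each P9 or P14 library left out) added after the data were seen (−44.6 to −23.4 points). The 25 with all or all but 1 of the 13 libraries kept an exact permutation p of at most 0.000488. The adult libraries alone gave −41.4 points, and −38.8, −44.6 and −40.8 points without replicates 1, 2 and 3, where 2 or 3 libraries cannot pass 0.05. The wider gap in microglia than in macrophages was −32.6 to −16.1 points in its 20 alternatives, the smallest without WT PU.1 replicate 1. With a replicate block of pairs of equal replicate number it was −26.6 points (exact permutation p = 0.25, the smallest 3 pairs allow), and the block left the other 3 differences at 2.202, −17.8 and 5.22 points and changed no call; equal numbers share a batch in adult and macrophage libraries, where a batch can hold 2 numbers, and for the histone marks they are only numbers. Peak lists of 1168 to 189351 regions limit what a missing peak can show.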
